A study of Homo sapiens with 6 samples.

Results

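The nectins, the nectin-like adhesion molecules and their adaptor afadin were examined in HEK293T, a human cell line derived from embryonic kidney. The cells had received either miR-34a as a duplex or AllStars, a commercial negative control, by transfection. The members are 9 named genes: the nectins NECTIN1, NECTIN2, NECTIN3 and NECTIN4, the nectin-like genes PVR, CADM1, CADM3 and CADM4, and AFDN, which encodes afadin. They are 9 of the 63140 Ensembl genes in the count table. The family was chosen by the measured fall of NECTIN1, one of the largest with miR-34a, so that all values of the miR-34a comparison below are given for the members as a description and support nothing. RNA was taken 18 h after transfection, and each group holds 3 libraries described as biological replicates. Both groups are transfected cells of the same line. The labels name the control an siRNA in one place and a miRNA in another, and no untransfected cells were analysed here. The experiment belongs to a study of how the shape of the miRNA-target complex affects repression.

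Nectins are immunoglobulin-like transmembrane proteins that bind each other across cell contacts without calcium, and their cytoplasmic tails bind afadin, a scaffold that ties them to actin at adherens junctions. The nectin-like proteins share the extracellular architecture but do not bind afadin; the CADM proteins bind protein 4.1 and membrane-associated guanylate kinases in its place. A microRNA guides Argonaute to an mRNA chiefly through its seed, the bases near its 5′ end.

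The mature miR-34a-5p sequence (RefSeq, GRCh38.p14), with the seed at positions 2 to 8 in capitals, is shown because all matches below are read against it.
miR-34a-5p: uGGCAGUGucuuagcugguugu

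The 3′ UTR of NECTIN1 held 7 matches to this seed. They were searched in GENCODE release 29 (GRCh38), in the coding transcript with the longest coding sequence, and every match lay in exon 6 of 6, on the minus strand of chromosome 11. A 7mer-m8 match is CACTGCC, a 7mer-A1 match is ACTGCCA, an 8mer match is CACTGCCA and a 6mer match is ACTGCC alone; each site is counted under its strongest kind. The 25 bases that end opposite position 1 of miR-34a-5p are given 5′ to 3′, with the matched bases in capitals and the start of the match counted from the stop codon.
NECTIN1 7mer-m8 at 858 nt: gccctgccccatccagaCACTGCCc
NECTIN1 7mer-m8 at 1816 nt: cgtcgttgtctggccctCACTGCCc
NECTIN1 7mer-m8 at 2050 nt: ccttttccacattacatCACTGCCc
NECTIN1 8mer at 2186 nt: gcatctcctttatcctgCACTGCCA
NECTIN1 7mer-A1 at 3259 nt: agagacccccaaagcctgACTGCCA
NECTIN1 7mer-m8 at 3337 nt: cacagggaggcttcacaCACTGCCc
NECTIN1 7mer-m8 at 3397 nt: gctgccactgctgccaaCACTGCCc

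The first match lies at chr11:119663883-119663889 and the last at chr11:119661344-119661350. The last 3 matches lay 78 and 60 nt apart, whereas the widest gap, 1073 nt, separated the 8mer from the 7mer-A1. Pairing of the 25 bases with miR-34a-5p, predicted with RNAduplex, gave energies of -14.4 kcal/mol for the match at 2050 nt to -22.1 kcal/mol for the match at 3397 nt. In that last site 11 of the miRNA bases at positions 9 to 22 were paired in the prediction, against 3 in the site at 2050 nt. The sites therefore share the bases ACTGCC. They differ in the kind of seed match and in the predicted pairing of the 3′ part of the miRNA.

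PVR and CADM4 were the other members with a 7mer or 8mer match in the 3′ UTR searched, and their sites are shown because their arrangement differs from that of NECTIN1. PVR held a pair of 7mer-A1 matches in exon 8 of 8 on the plus strand of chromosome 19, at chr19:44662208-44662214 and chr19:44662217-44662223, so that their starts lay 9 nt apart and the 25 bases overlap. CADM4 held an 8mer in exon 9 of 9 on the minus strand, at chr19:43623273-43623280, 50 nt after the stop codon.
PVR 7mer-A1 at 397 nt: tgacaacatgcaagaagtACTGCCA
PVR 7mer-A1 at 406 nt: gcaagaagtactgccaatACTGCCA
CADM4 8mer at 50 nt: tgggctggggtccccccCACTGCCA

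The predicted pairing energies were -22.7 and -16.9 kcal/mol for the PVR sites and -21.1 kcal/mol for the CADM4 site. CADM3 held a pair of 6mer matches and AFDN a lone 6mer, and NECTIN2, NECTIN3, NECTIN4 and CADM1 held none. For CADM1 the transcript searched has a 3′ UTR of 179 nt; another annotated transcript has one of 7238 nt, which held a 6mer and no longer match. Other annotated transcripts add a 7mer-m8 for NECTIN2, 116 nt after the stop codon, and an 8mer for PVR, 61 nt after the stop codon. For NECTIN1 only 1 coding transcript has an annotated 3′ UTR. Counts per gene do not say which of these transcripts the cells make.

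**Figure D1:**
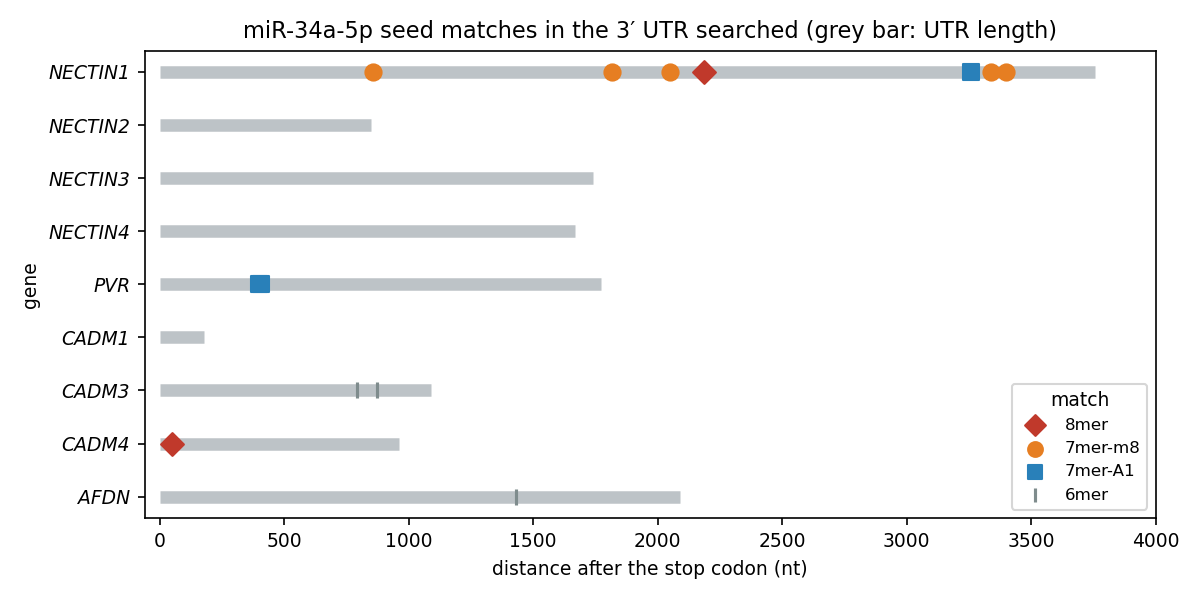
Seed matches of miR-34a-5p in the 3′ UTR searched of each of the 9 genes, by distance after the stop codon in nt; grey bars give the UTR length and the symbols the kind of match. NECTIN1 holds 7 matches spread over 2539 nt, PVR a pair 9 nt apart and CADM4 an 8mer at 50 nt.

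In the transcript searched for each gene, no other protein-coding gene held as many matches as NECTIN1. Further transcripts were searched for the members only. Among 18155 protein-coding genes with a 3′ UTR of at least 50 nt, 19.0% held at least 1 match of the 7mer or 8mer kind, and NECTIN1 was the only gene with 7; none held more. Its 3′ UTR of 3755 nt held 1.86 such matches per kb, against 0.160 per kb over all these UTRs. Of the 1543 other genes whose UTR was 0.8 to 1.25 times the length of that of NECTIN1, the highest number was 5 and the median was 0. The number of matches was not itself used to choose the members. The family was chosen for the fall of NECTIN1, however, and genes with at least 4 matches were more often called lower than genes with none (below). The number of matches is therefore not independent of that choice.

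Library totals ranged from 25198898 to 36650331 counts with miR-34a and from 24728662 to 32849065 counts in the control. The first principal component, with 32.5% of the variance, separated the groups. All 11 HEK293T markers were detected in enough reads to be tested, and their summed level was 821 to 851 CPM with miR-34a and 858 to 918 CPM in the control. CPM are counts scaled to the effective size of each library, so that libraries of unequal depth can be compared. Of these markers the neurofilament genes NEFM, NEFL and INA were lower and LIN28B was higher, where NEFM shares 38.9% of its exons with a gene on the opposite strand; their part in the results below was not tested. None of 9 markers of blood, endothelial, fibroblast or liver cells exceeded 4 counts in any library; their summed level was 0.0685 to 0.238 CPM with miR-34a and 0.183 to 0.327 CPM in the control, and CD3E, COL1A2 and DCN were at 0 in all 6.

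Detected members differed in level over a wide range. Levels are compared between genes as RPKM, which is CPM divided by the annotated exonic length of the gene in kilobases. In the control, PVR at 18.4 ± 0.42 and AFDN at 17.7 ± 1.62 RPKM were the highest and did not differ beyond their spread (SD, n = 3). NECTIN2 followed at 11.95 ± 1.04 RPKM. CADM1 at 7.66 ± 0.0934, CADM4 at 7.50 ± 0.497 and NECTIN3 at 7.46 ± 0.873 RPKM could not be ordered, and NECTIN1 stood below them at 3.43 ± 0.187 RPKM. NECTIN4, at 0.120 ± 0.0273 RPKM, rested on 10 to 15 counts per library. This order depends on the length used. With the length of the transcript that has the longest coding sequence (1766 nt for CADM1), control levels were 47.8 ± 0.583 RPKM for CADM1 and 32.0 ± 2.93 RPKM for AFDN (SD, n = 3). PVR at 19.5 ± 0.447 and NECTIN2 at 18.2 ± 1.58 RPKM then did not differ beyond their spread. NECTIN3 at 12.6 ± 1.47 RPKM stood above CADM4 at 7.73 ± 0.513 RPKM, and NECTIN1 at 4.53 ± 0.247 RPKM remained above NECTIN4 and CADM3 alone.

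NECTIN1, an adhesion molecule that herpes simplex virus uses for entry, was lower with miR-34a in every library. Its gene (ENSG00000110400) lies at chr11:119623408-119729084 on the minus strand. It had 7.39, 7.26 and 7.16 CPM in the miR-34a libraries, against 26.4, 27.9 and 25 CPM in the control libraries. The groups lay far apart, and the miR-34a libraries differed among themselves by less than the control libraries did. The level with miR-34a was 27.5% of that in the control, a log2 fold change of -1.86 ± 0.10 (SE; 95% interval -2.07 to -1.66), or 3.64-fold lower. This was the 5th lowest log2 fold change of the 17427 genes tested. These values chose the family and are not tested here. In bulk RNA, fewer cells that make a transcript and less of it per cell cannot be told apart.

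The share of NECTIN1 among nectin transcripts was smaller with miR-34a, which follows from the fall that chose the family. The shares of the other nectins also depend on NECTIN1 through the sum. Of the summed RPKM of the 4 nectins, NECTIN1 made up 4.75 ± 0.317% with miR-34a and 15.0 ± 0.899% in the control (SD, n = 3). The summed level was 19.9 ± 1.24 RPKM with miR-34a and 23.0 ± 0.169 RPKM in the control. NECTIN2 gave the largest part in both groups, 55.3 ± 1.16% with miR-34a and 52.0 ± 4.21% in the control, and NECTIN3 gave 39.1 ± 0.965% with miR-34a and 32.5 ± 3.96% in the control.

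The other nectins did not pass the test. NECTIN2, which binds NECTIN3 and lymphocyte receptors (ENSG00000130202, chr19:44846175-44889228), had 42.4, 37.6 and 44.1 CPM with miR-34a, against 40.5, 45.7 and 48.1 CPM in the control. The groups overlapped, and the log2 fold change was -0.12 ± 0.08 (SE; 95% interval -0.29 to 0.05). It was -0.18 without control replicate 1, -0.06 without control replicate 3 and -0.05 without miR-34a replicate 2. NECTIN3, the preferred partner of NECTIN1 across cell contacts (ENSG00000177707, chr3:111070071-111275563), had 49.6, 45.8 and 49.1 CPM with miR-34a, against 52.4, 42.9 and 43.1 CPM in the control. Control replicate 1 was the highest of all libraries, the groups overlapped, and the log2 fold change was 0.06 ± 0.08 (95% interval -0.10 to 0.23). It was 0.17 without control replicate 1, 0.10 without miR-34a replicate 2, and 0.02 without control replicate 2 or 3. NECTIN4, best known as an antibody target in urothelial cancer (ENSG00000143217, chr1:161070995-161089599), had 14, 14 and 26 counts with miR-34a and 12, 15 and 10 counts in the control. At this depth its log2 fold change of 0.49 ± 0.42 has a 95% interval of -0.37 to 1.35, so that no difference was detectable.

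**Figure D2:**
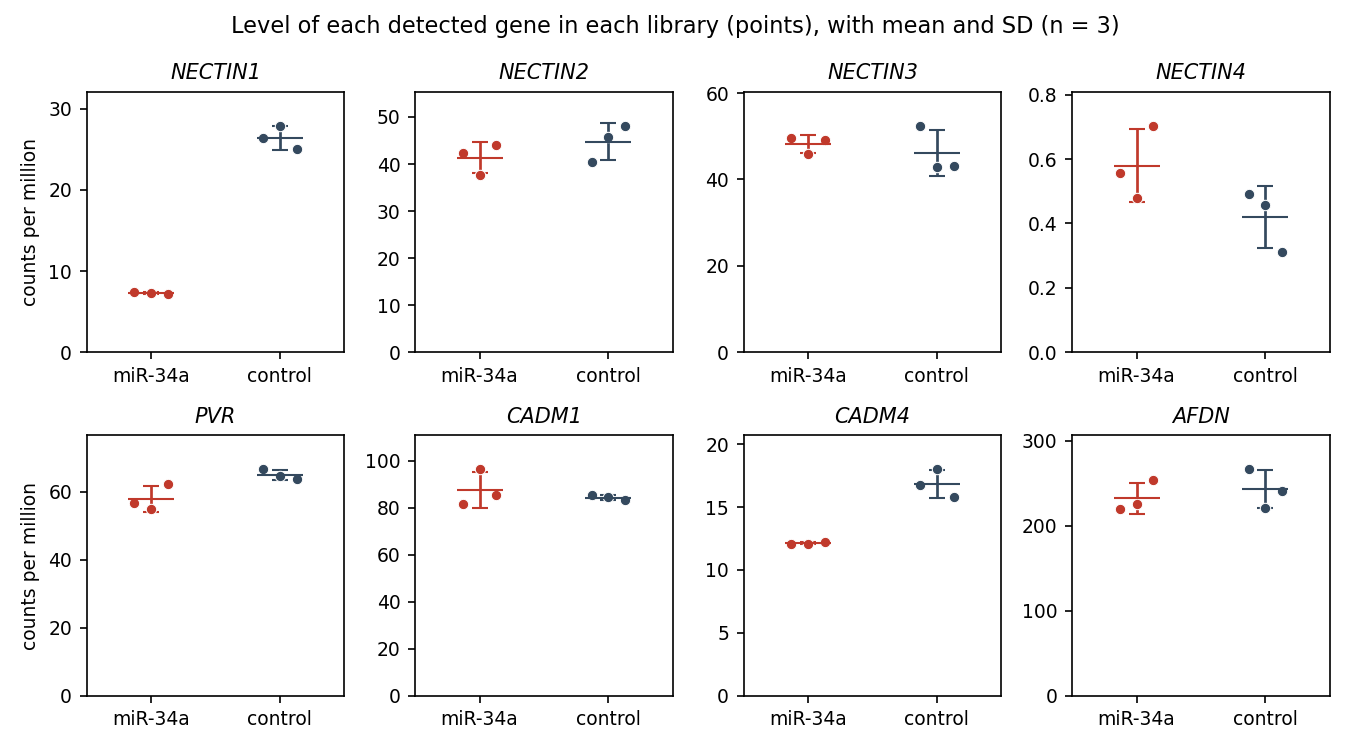
CPM of the 8 detected genes in each library (points), with the mean and SD of each group (bars, n = 3); each panel starts at 0 and has its own scale. NECTIN1, CADM4 and PVR had all 3 miR-34a libraries below all 3 control libraries, and the other 5 genes overlapped.

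Among the nectin-like genes CADM4 was lower with miR-34a, and PVR did not pass the test. CADM4, an adhesion molecule of Schwann cells and epithelia (ENSG00000105767, chr19:43622368-43639839), had 12.1, 12.1 and 12.2 CPM with miR-34a, against 16.8, 18.0 and 15.8 CPM in the control. The groups did not overlap; the log2 fold change was -0.47 ± 0.10 (SE; 95% interval -0.68 to -0.27), or 1.39-fold lower. PVR, the poliovirus receptor and a ligand of the lymphocyte receptors CD226 and TIGIT (ENSG00000073008, chr19:44643798-44663583), had 56.7, 54.8 and 62.1 CPM with miR-34a, against 66.5, 64.5 and 63.6 CPM in the control. These groups did not overlap either, but miR-34a replicate 3 came close to control replicate 3, and the log2 fold change was -0.16 ± 0.07 (95% interval for the gene alone -0.31 to -0.01). It was not called after adjustment over all genes.

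CADM1, a tumour suppressor in lung cancer and a synaptic adhesion molecule (ENSG00000182985, chr11:115169218-115504957), had 81.6, 96.4 and 85.3 CPM with miR-34a, against 85.3, 84.7 and 83.3 CPM in the control. The groups overlapped, with miR-34a replicate 2 the highest, and the log2 fold change was 0.06 ± 0.07 (SE; 95% interval -0.09 to 0.21). Without miR-34a replicate 2 it was -0.01. CADM3, an adhesion molecule of neurons (ENSG00000162706, chr1:159171609-159203313), had 0 counts in all 6 libraries. A count of 0 allows up to 3 counts, or 0.0819 to 0.119 CPM in the miR-34a libraries and 0.0913 to 0.121 CPM in the control libraries, for counting error only. CADM3 shares 36.6% of its exons with CADM3-AS1 on the opposite strand, which also averaged 0 CPM in both groups.

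AFDN, the scaffold that binds the tails of the nectins (ENSG00000130396, chr6:167826922-167972023), had 219, 225 and 253 CPM with miR-34a, against 266, 221 and 241 CPM in the control. The groups overlapped, and the log2 fold change was -0.06 ± 0.08 (SE; 95% interval -0.22 to 0.10). Without control replicate 1, the highest library, it was 0.01.

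Of the 8 members tested, 2 were called lower (adjusted p under 0.05 in edgeR's quasi-likelihood fit across all genes), 0 higher and 6 were not called. Over all 17427 genes tested, 6.70% were called lower and 5.38% higher; the family was chosen with this contrast known, so nothing is read from its count. The groups did not overlap, with miR-34a lower, in 3 members; over all tested genes that share was 14.2%, and with miR-34a higher it was 13.1%. The median log2 fold change was -0.09 over the members tested and -0.004 over all genes tested. The members that were neither NECTIN1 nor CADM4 had log2 fold changes of -0.16 (PVR) to 0.49 (NECTIN4). PVR shares 3.44% of its exonic length with CEACAM19 on the same strand and NECTIN2 shares 3.416% with an antisense gene at 0.0457 CPM with miR-34a and 0.0374 CPM in the control; CADM3 was not tested, and the exons of NECTIN1, CADM4, CADM1, AFDN, NECTIN3 and NECTIN4 overlap no other annotated gene of the table.

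**Figure D3:**
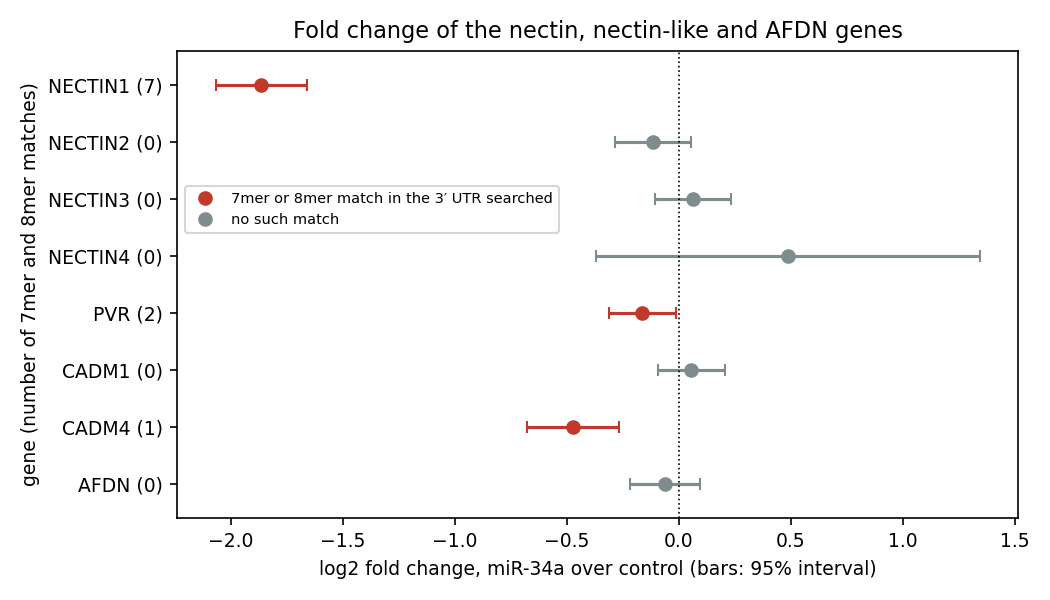
Log2 fold change, miR-34a over control, of the 8 tested genes with its 95% interval (bars); the number of 7mer and 8mer matches in the 3′ UTR searched stands in brackets. NECTIN1 lies at -1.86, CADM4 at -0.47 and PVR at -0.16, and the genes with no such match lie between -0.12 and 0.49.

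The members were then set beside all tested protein-coding genes by number of 7mer and 8mer matches. Of 50 tested genes with at least 4 matches, 36.0% were called lower and their median log2 fold change was -0.20, against 5.54% and 0.01 for the 10234 genes with none. NECTIN1 is among the 50 genes with at least 4 matches and had the lowest log2 fold change of them. The family was chosen for that fall, so nothing is read from its place. The next lowest was -1.37. The 7 tested genes with 6 matches had log2 fold changes of -0.55 to 0.08, and 2 of them were called lower: HCN3, a pacemaker channel subunit (-0.47, edgeR adjusted p = 0.0017), and NAT8L, which makes N-acetylaspartate (-0.41, edgeR adjusted p = 0.00031). The others with 6 were FUT9, KCNC4, SCUBE1, PEAK1 and SMAD2. CADM4 lay below the lower quartile, -0.24, of the 2077 genes with 1 match. PVR lay between the quartiles, -0.36 and 0.07, of the 473 genes with 2. Genes with more matches also have longer UTRs, with a median of 6901 nt for at least 4 matches and 811 nt for none. UTR length was not matched here.

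**Figure D4:**
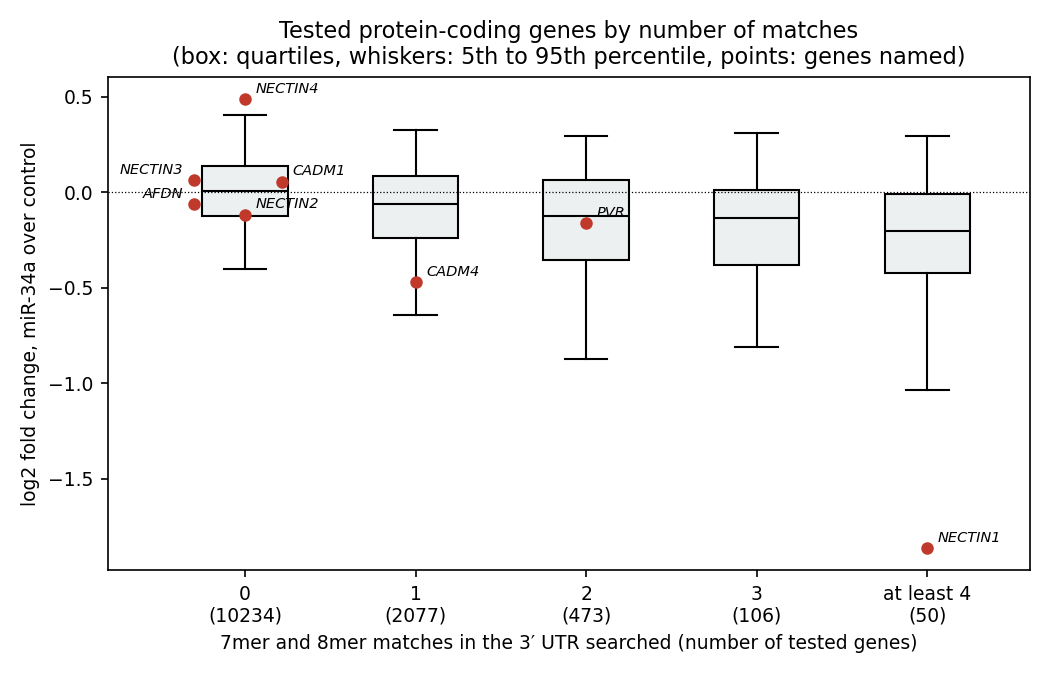
Log2 fold change, miR-34a over control, of tested protein-coding genes by number of 7mer and 8mer matches in the 3′ UTR searched; boxes give the quartiles, whiskers the 5th to 95th percentile, and points the genes of the family. NECTIN1, whose fall chose the family, lies below the whisker of the genes with at least 4 matches. CADM4 lies below the box of those with 1 and PVR inside the box of those with 2.

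Most genes whose products work beside nectins and afadin did not pass the test. Of 23 such genes, 4 fell and 0 rose, with a median log2 fold change of 0.02. Over all genes tested, 6.70% were called lower and 5.38% higher, and nothing is read from the counts of this and the following lists. PFN1, the actin-binding protein profilin, fell to 380 ± 9.82 CPM with miR-34a, against 472 ± 40.9 CPM in the control (SD, n = 3). It held 0 matches in the 3′ UTR searched, and its log2 fold change was -0.31 (edgeR adjusted p = 0.0037). PFN1 has processed pseudogenes and shares 5.59% of its exons with ENO3 on the other strand, and its value is uncertain for both reasons. ENO3 stood at 7.75 CPM with miR-34a and 7.22 CPM in the control. The kinase SRC, which acts downstream of nectins and held 3 matches, fell by 0.29 on the log2 scale (edgeR adjusted p = 0.016). Its call was lost in 3 of 6 fits that left out a library, whereas that of PFN1 held in all 6. PFN1 and SRC are the called genes of this list described here.

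On the cadherin and catenin side of the junction 1 of 13 tested genes fell and 0 rose, with a median log2 fold change of -0.06. The shares over all genes tested were 6.70% lower and 5.38% higher. VCL, which encodes vinculin, a link between catenins and actin, fell to 123 ± 1.81 CPM with miR-34a, against 179 ± 9.69 CPM in the control (SD, n = 3), a log2 fold change of -0.54 (edgeR adjusted p = 3.2e-06). It held 1 match and shares 11.1% of its exons with AP3M1 on the opposite strand, which stood at 118 CPM with miR-34a and 124 CPM in the control, so that its value is uncertain. Under the CADM proteins, 1 of 13 tested partners fell and 0 rose, with a median of 0.04, beside the same shares over all genes. MPP2, a membrane-associated guanylate kinase, fell to 29.4 ± 0.549 CPM, against 72.2 ± 5.17 CPM in the control, a log2 fold change of -1.30 (edgeR adjusted p = 1.7e-11). Its 3′ UTR was under 50 nt in the transcript taken and was not searched.

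Most other adhesion molecules of the immunoglobulin type did not pass the test. This list holds CADM2, a CADM gene outside the members, at 2.01 ± 0.333 CPM with miR-34a and 1.94 ± 0.930 CPM in the control (SD, n = 3). CADM2 had a log2 fold change of 0.05 and was not called. Of the 23 tested genes of this list, 4 fell, 1 rose and 18 were not called, with a median log2 fold change of -0.10. Among all genes tested, 6.70% were called lower and 5.38% higher. IGSF3 fell to 29.1 ± 3.65 CPM with miR-34a, against 49.2 ± 2.44 CPM in the control (SD, n = 3; log2 fold change -0.75, edgeR adjusted p = 7.0e-07). NEO1, a netrin receptor with 2 matches, fell to 69.3 ± 3.15 CPM, against 89.0 ± 4.61 CPM in the control (log2 fold change -0.36, edgeR adjusted p = 0.00088). IGSF9 and ALCAM fell by 0.61 and 0.23 on the log2 scale, and the neural adhesion molecule NCAM1 had a log2 fold change of 0.25 (edgeR adjusted p = 0.042, 0.048 and 0.049). The calls of IGSF9 and NCAM1 held in 1 of 6 fits that left out a library and that of ALCAM in 2; with the replicate number as a block, or with no filter on low counts, 0 of these genes were called higher. IGSF3, IGSF9 and ALCAM held 1 match each in the 3′ UTR searched, and NCAM1 held 0. NCAM1 shares 4.33% of its exons with NCAM1-AS1 on the opposite strand. None of the 5 lymphocyte receptors for nectins and nectin-like proteins, CD226, TIGIT, CD96, PVRIG and CRTAM, reached the filter, with at most 17 counts in a library.

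**Figure D5:**
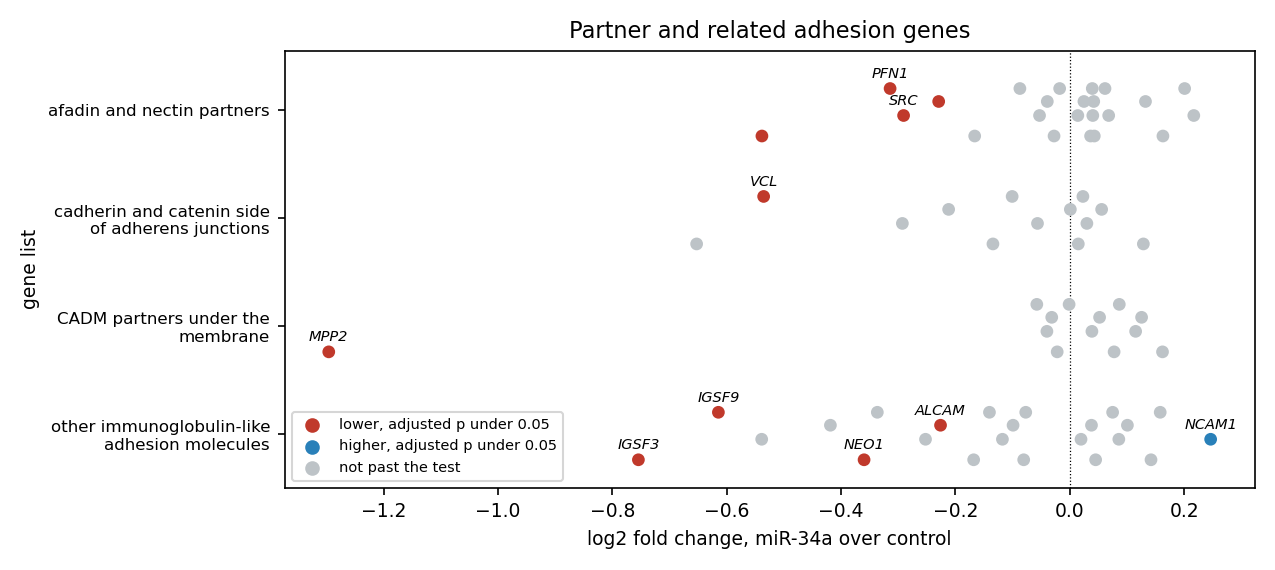
Log2 fold change, miR-34a over control, of the tested genes of 4 lists of partner and related adhesion genes; each point is a gene, coloured by its call, and called genes described in the text are named. MPP2 at -1.30 and IGSF3 at -0.75 are the lowest, and NCAM1 at 0.25 is the only gene called higher.

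Among 9937 protein-coding genes whose mean log2 CPM was 3 or more, the members left out, those whose log2 CPM over the 6 libraries was most like that of NECTIN1 were OAF, PPP1R11, MOV10, MPP2 and MYO1C, with Pearson's r of 0.9984 to 0.9996. The 6 points are the same libraries in 2 groups, so the r values rest on the difference between groups. All 5 were lower with miR-34a, with log2 fold changes of -0.82, -1.38, -0.47, -1.30 and -0.79 in that order. Their direction follows from the choice by r, because NECTIN1 itself fell. None of these falls was as large as that of NECTIN1.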

How the data were processed

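The authors deposited raw read counts per Ensembl gene, with no normalization, for 6 libraries. Per the submitters' processing notes, STAR 2.7.11a, featureCounts, Subread 2.0.3, edgeR 3.42.4 and the GRCh38 build were used; no source used here gives the annotation release, the strand setting or how multi-mapped reads were treated. Per the labels' protocols, libraries were TruSeq RNA v2, a kit that does not mark strand. Symbols matched 58531 of 63140 identifiers. From the deposited counts, genes were kept with filterByExpr (minimum count 10, minimum total 15), which left 17427, scaled by TMM and compared in edgeR 4.0.16 (R 4.3.3) by its quasi-likelihood test with group as sole term. Adjustment was by Benjamini-Hochberg over all tested genes, with a threshold of 0.05. The SE is the log2 fold change divided by the square root of F. CPM use TMM library sizes. Pairing was predicted with RNAduplex of ViennaRNA 2.7.2. Coordinates are GRCh38, counted from 1. P-values set the group difference against the variation among these libraries only.

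The members, the gene lists and the markers were chosen with earlier results of these data known. From each list up to 5 called genes are named, or the 2 most expressed where none is called and any was tested. A few called genes are not reported here. The rule takes also the 5 genes most like NECTIN1 and those with the most matches; 7 genes tied at 6 matches, so these are given as a range with the called ones named. Alternatives were other scalings (DESeq2 size factors, library size only), other filters, the Wald test of DESeq2 1.42.0, the replicate number as a block, and leaving out each library. No pair of libraries of a group looked like a library deposited in duplicate (chi-square per degree of freedom 8.39 to 15.98).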

Additional observations from a re-analysis of the deposited data

How the results depend on the processing

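The members called lower, NECTIN1 and CADM4, kept their calls under every scaling, filter, test, block and left-out library run, with log2 fold changes of -1.90 to -1.82 and -0.52 to -0.42 when a library was left out. No other member was called under any of them where it was tested. NECTIN4 was not tested with the filter at 1 CPM in 3 libraries and had no adjusted p in the DESeq2 Wald test. CADM3, with 0 counts, was not tested under any of them. CADM1 changed sign without miR-34a replicate 2, to -0.014 (range over left-out libraries -0.01 to 0.11) and AFDN without control replicate 1, to 0.014 (-0.13 to 0.01). With libraries left out, 727 to 1394 genes were called lower and 525 to 1287 higher over all genes; the counts moved by over 1.5 times without miR-34a replicate 2 (727 lower, 604 higher), control replicate 2 (525 higher) and control replicate 3 (606 higher).

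With a library left out, calls among the afadin and nectin partners ranged from 1 to 3 lower and 0 to 1 higher, among the CADM partners from 0 to 1 higher, and among the other immunoglobulin-like molecules from 2 to 4 lower and 0 to 1 higher. One partner of afadin and nectins was called higher with library size only and with the DESeq2 Wald test (1 each). With a filter at 1 CPM in 3 libraries, 2 cadherin-side genes were called lower. With no filter, 1 lymphocyte receptor was called lower, and 2 of the other immunoglobulin-like molecules lower and 0 higher; with library size only 2 of these were lower. The cause was not tested.

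Same-numbered libraries did not deviate together over all genes (r = -0.025, 0.022 and -0.076), and the main fit did not pair them. These values cannot exclude a shared batch that affects few genes. With the replicate block, 1023 genes were called lower and 807 higher, 2 members lower, and 0 of the other immunoglobulin-like molecules higher.

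Counting sites in all coding transcripts gave 1 for NECTIN2; counting 6mers gave 2 for CADM3 and 1 for AFDN. With the transcript length, control levels were 4.53 RPKM for NECTIN1, 18.2 for NECTIN2, 12.6 for NECTIN3, 19.5 for PVR, 47.8 for CADM1 and 32.0 for AFDN. Depth limits NECTIN4, and CADM3 had 0 counts in every library.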
